A study of Mus musculus with 12 samples.

Results

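Cholesterol is built from acetyl-CoA in a long chain of steps, and the mRNAs of 7 of its enzymes were followed here: Hmgcs1, Fdft1, Sqle, Lss, Cyp51, Dhcr7 and Sc5d. They were chosen by symbol, through the Ensembl identifiers of the count tables, and all 7 were found among the 29879 genes counted. The first steps of the chain, Hmgcs1 among them, run in the cytosol on soluble enzymes. From squalene onward the intermediates are too greasy for water, and the work moves to enzymes held in the membrane of the endoplasmic reticulum (ER). The mRNAs of many membrane proteins are translated on ribosomes at that membrane. Where the mRNAs of these enzymes are translated was not measured here. In brain, cholesterol is made locally because the blood-brain barrier holds back lipoproteins. Astrocytes and myelin-forming oligodendrocytes are known as its main producers, and neurons take up part of what they need.

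Cortex was taken at postnatal day 21 from mice of the SNAP25 bacTRAP line, and every group carries this transgene. A bacTRAP line makes a ribosomal protein fused to green fluorescent protein (eGFP) under the control of a chosen gene, here the neuronal gene Snap25, so that tagged ribosomes can be pulled down with the mRNA they hold. The 12 libraries formed 4 groups of 3. WCH was RNA of the cortex homogenate, TRAP the eGFP pull-down from cortex, SNF the synaptic (SN) band that forms in a sucrose-percoll density gradient, and SynapTRAP the eGFP pull-down from that band. The labels name no treatment, and they do not say whether a replicate came from 1 animal or several. The p-values therefore measure the spread between libraries, which may be technical.

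The libraries held 4368881 to 14335089 gene counts. Transcripts of the mitochondrial genome took 82.2% to 87.3% of them in SNF, against 0.930% to 5.43% in TRAP, which left SNF with 1819853 to 2111322 counts from other genes. Levels are given as CPM, counts scaled to a common library size, after TMM scaling, which sets libraries to a common level by the bulk of their genes. Differences between groups are log2 fold changes ± SE from 1 edgeR quasi-likelihood fit over all 12 libraries, and a gene was called at a Benjamini-Hochberg adjusted p under 0.05 over the 13404 genes tested. All 7 enzymes passed the filter on low counts. Scaling by total gene counts instead shifted the median gene from -0.25 to -2.60 in SNF against WCH and from 0.03 to 1.98 in SynapTRAP against SNF. Under that scaling many of the directions below turn, so each is stated relative to the bulk of genes. Relative to the median gene, all 7 enzymes lay above it in SNF against WCH under TMM, under RLE size factors and under total counts. A change of scaling moves all genes of a library together, so the 3 scalings are not separate tests of this position.

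Marker genes of the cells in cortex moved with the preparations as well. The summed level of 12 astrocyte markers ran from 2256 to 2817 CPM in WCH and from 605.2 to 1381 in TRAP. It ran from 13420 to 18610 in the band before the pull-down and from 9184 to 15830 after it. The 12 oligodendrocyte markers summed to 2709 to 3471 CPM in WCH, 536.3 to 7115 in TRAP, 7334 to 9672 in SNF and 8900 to 21760 in SynapTRAP. These sums hide that most of the 12 fell with the pull-downs. Their median log2 fold change was -2.07 in TRAP against WCH and -0.43 in SynapTRAP against SNF, with 1 and 3 of 12 positive. Mbp was at 2.37 and 2.34 there, not called in either. The 12 microglia markers summed to 89.9 to 112.1 CPM in WCH, 27.6 to 57.4 in TRAP, 356.9 to 729.5 in SNF and 226.2 to 498.7 in SynapTRAP. The 12 neuron markers summed to 9916 to 10740, 9834 to 14800, 8296 to 9100 and 6662 to 9061 CPM in the same order. The 6 markers of oligodendrocyte precursors summed to 36.2 to 358.6 CPM and the 10 endothelial markers to 8.65 to 47.3 over all libraries. No marker of these lists was at 0 in a whole group. The shares of all genes called in SNF against WCH were 20.6% higher and 16.5% lower. Markers called higher there were 12 of 12 for microglia, 11 of 12 for astrocytes and 7 of 12 for oligodendrocytes. For oligodendrocyte precursors 3 of 6 were called higher, for endothelium 2 of 10 and for neurons 2 of 12. Only neurons had markers called lower, 2 of 12. Among those not called were Sox9 of astrocytes (0.57), Ermn (-0.25) and Mobp (-0.06) of oligodendrocytes, and Olig2 (-0.05) and Sox10 (-0.51) of precursors. The part of these cells in the results below was not tested. In bulk RNA, fewer cells of a type and less RNA per cell cannot be told apart.

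The coding sequences of the enzymes differ in how rich they are in codons for greasy amino acids. In the genetic code, a T as the second base of a codon gives a greasy amino acid, so a run of such codons encodes a greasy stretch of the kind that can sit in a membrane. The richest window of 20 codons was therefore found in the coding sequence of each enzyme, a measure chosen after the changes between groups had been seen. It held 14 such codons in Dhcr7, 13 in Sqle, 13 in Sc5d, 11 in Cyp51, 10 in Fdft1, 10 in Lss and 9 in the soluble Hmgcs1. The median over 12877 tested genes with a coding sequence was 10, so the count does not set Fdft1 and Lss apart from other genes. Cyp51 is hardly set apart either, since 44.2% of tested genes have 11 or more. The windows of 5 enzymes are shown 5′ to 3′, with each second-base T in capitals. They are those of 3 membrane enzymes above the median count (Dhcr7, Sqle, Cyp51), a membrane-bound enzyme at the median (Lss) and the soluble enzyme.
Dhcr7: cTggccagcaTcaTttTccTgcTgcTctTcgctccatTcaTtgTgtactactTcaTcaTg
Sqle: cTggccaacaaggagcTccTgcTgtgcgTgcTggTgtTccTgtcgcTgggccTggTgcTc
Cyp51: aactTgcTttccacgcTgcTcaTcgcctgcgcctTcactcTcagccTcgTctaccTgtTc
Lss: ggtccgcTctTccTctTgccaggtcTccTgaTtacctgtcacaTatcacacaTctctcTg
Hmgcs1: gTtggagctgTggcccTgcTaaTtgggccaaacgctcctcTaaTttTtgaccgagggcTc
The first 3 each lie in 1 coding exon (GENCODE M21, GRCm38). The Dhcr7 window is chr7:143837781-143837840 on the plus strand, codons 39 to 58 of 474. The Sqle window is chr15:59315908-59315967 on the plus strand, codons 22 to 41 of 572. The Cyp51 window is chr5:4104176-4104235 on the minus strand, codons 25 to 44 of 503. Those of Lss (chr10:76533630-76535596, plus strand, codons 101 to 120 of 733) and Hmgcs1 (chr13:119700579-119701080, plus strand, codons 174 to 193 of 520) span an intron, which is left out of the printed coding sequence.

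Hmgcs1, the cytosolic HMG-CoA synthase, works early in the chain. Its level was 100, 94.1 and 128.4 CPM in the WCH libraries, 103.6, 57.0 and 88.3 in TRAP, 113.4, 104.5 and 136.5 in SNF, and 191.5, 191.6 and 199.9 in SynapTRAP. WCH overlapped both TRAP and SNF, the SNF libraries lay narrowly above those of TRAP, and every SynapTRAP library lay above all others. In SNF against WCH the difference was 0.14 ± 0.23 on the log2 scale (edgeR adjusted p = 0.663), and in TRAP against WCH it was -0.37 ± 0.23 (adjusted p = 0.258). SynapTRAP exceeded TRAP by 1.23 ± 0.23 (edgeR adjusted p = 0.000319), 2.34-fold. Hmgcs1 shares 557 exon bases with the antisense gene Gm48342, whose reads could not be told apart.

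Fdft1, squalene synthase, joins the last soluble intermediate into squalene and is anchored in the ER membrane by its tail end. It measured 24.4, 23.4 and 18.1 CPM in WCH, 37.7, 34.7 and 51.4 in TRAP, 30.8, 47.3 and 27.7 in SNF, and 36.2, 47.7 and 27.1 in SynapTRAP. All 9 libraries outside WCH lay above the 3 of WCH, and the other 3 groups overlapped. Fdft1 was higher in TRAP than in WCH by 0.91 ± 0.26 (edgeR adjusted p = 0.0144) and in SNF than in WCH by 0.68 ± 0.26 (adjusted p = 0.0440). Both calls were weak: the first was lost without WCH replicate 3 (adjusted p = 0.0842) or TRAP replicate 3 (0.0730), and the second without SNF replicate 1 or 2 and without WCH replicate 2 or 3 (adjusted p from edgeR of 0.0634 to 0.292). Fdft1 shares 774 exon bases with Ctsb on the other strand, and a processed pseudogene, Gm6781, is 97.4% identical over 1249 bases, so its counts are uncertain.

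Sqle, squalene epoxidase, carries out the first oxygen-dependent step. It measured 30.5, 36.8 and 40.0 CPM in WCH, 40.2, 42.6 and 43.7 in TRAP, 92.7, 141.7 and 106.8 in SNF, and 83.7, 112.1 and 76.7 in SynapTRAP. The 6 libraries of the band all lay above the 6 from whole cortex. Sqle was 3.18-fold higher in SNF than in WCH, 1.67 ± 0.23 on the log2 scale (edgeR adjusted p = 1.14e-05).

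Lss, lanosterol synthase, closes the sterol rings and is bound to a single face of the ER membrane. It measured 12.7, 12.2 and 12.3 CPM in WCH, 7.48, 7.70 and 9.17 in TRAP, 10.9, 13.3 and 9.97 in SNF, and 20.7, 13.9 and 22.6 in SynapTRAP. SNF overlapped WCH, unlike the other late enzymes, and SynapTRAP lay highest, as for Hmgcs1. The difference of SNF from WCH was -0.12 ± 0.26 (edgeR adjusted p = 0.745). Lss rested on 38 to 50 counts in the SNF libraries, the fewest of the 7 enzymes, and shares 381 exon bases with the antisense gene 4930483K19Rik.

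Cyp51, the lanosterol demethylase of the cytochrome P450 family, is held by a single greasy stretch near its front end, the window shown above. It measured 22.9, 23.0 and 34.3 CPM in WCH, 16.5, 17.8 and 18.3 in TRAP, 86.0, 109.8 and 104.8 in SNF, and 82.3, 93.5 and 76.4 in SynapTRAP. The band libraries again stood clear of the others, and TRAP lay lowest. Cyp51 was 3.76-fold higher in SNF than in WCH, 1.91 ± 0.22 (edgeR adjusted p = 3.54e-06), and 4.80-fold higher in SynapTRAP than in TRAP, 2.26 ± 0.23 (adjusted p = 3.38e-07), the largest difference of the 7 in the latter comparison. It shares 166 exon bases with Akap9 on the other strand.

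Dhcr7 and Sc5d, which act on the last double bonds of the sterol rings and cross the membrane several times, had the same shape. Dhcr7 measured 8.18, 9.33 and 9.54 CPM in WCH, 6.59, 10.2 and 8.91 in TRAP, 24.8, 41.8 and 26.3 in SNF, and 23.7, 24.1 and 21.2 in SynapTRAP. Sc5d measured 14.7, 16.0 and 14.9 CPM in WCH, 12.3, 11.4 and 18.4 in TRAP, 54.7, 62.2 and 60.8 in SNF, and 42.9, 38.5 and 32.0 in SynapTRAP. For both, WCH and TRAP overlapped and all band libraries were higher. Against WCH, SNF was higher for Dhcr7 by 1.78 ± 0.26 (edgeR adjusted p = 2.28e-05) and for Sc5d by 1.96 ± 0.23 (adjusted p = 3.90e-06). Every SNF library of Sc5d lay above every SynapTRAP library.

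**Figure D1:**
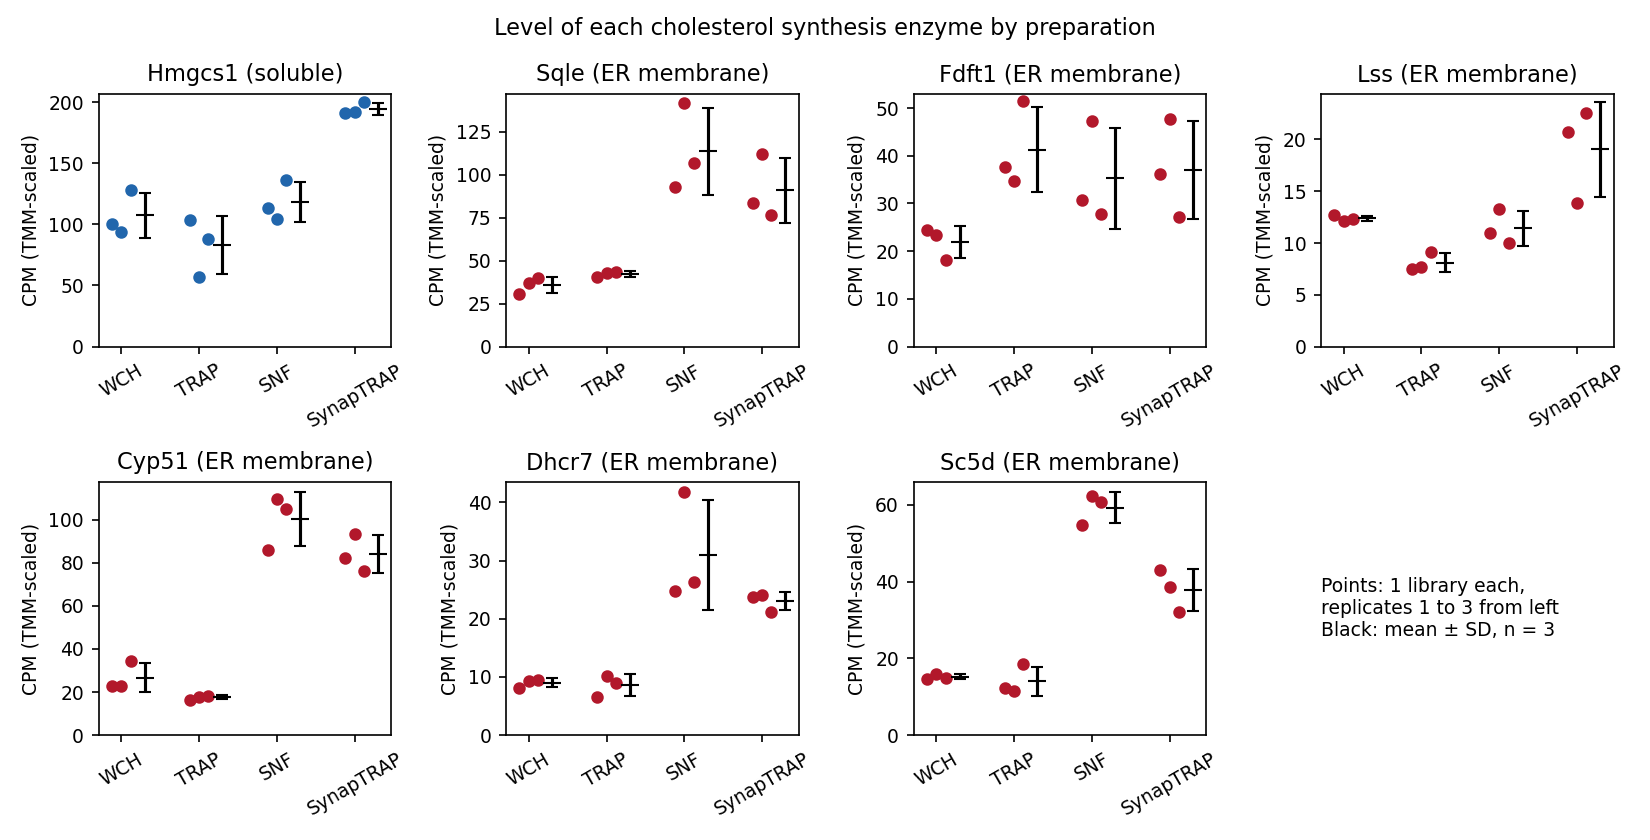
Level of each enzyme in CPM (vertical axes, from 0, TMM-scaled) in the 12 libraries, by preparation. Points are libraries and black marks are mean ± SD (n = 3). Sqle, Cyp51, Dhcr7 and Sc5d are high in SNF and SynapTRAP, while Hmgcs1 and Lss are highest in SynapTRAP and overlap between WCH and SNF. Under scaling by total counts the log2 difference of SNF from WCH was negative for each enzyme, but only Fdft1, Lss and Hmgcs1 were called lower.

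Per kilobase of transcript, which allows genes to be compared, the order of the levels changed between the preparations. In WCH, Hmgcs1 led at 31.0 ± 5.28 CPM per kb (SD, n = 3), ahead of Sqle at 12.97 ± 1.75. Cyp51 (6.80 ± 1.67), Fdft1 (5.93 ± 0.920) and Dhcr7 (5.46 ± 0.441) did not differ beyond their spread, and Sc5d (3.18 ± 0.135) and Lss (2.65 ± 0.0552) closed the order. In TRAP, Hmgcs1 (24.0 ± 6.86 CPM per kb) and Sqle (15.3 ± 0.637) were followed by Fdft1 (11.2 ± 2.41), then by Dhcr7 (5.19 ± 1.12) and Cyp51 (4.46 ± 0.245), which did not differ beyond their spread, and by Sc5d (2.93 ± 0.796) and Lss (1.74 ± 0.196). In SNF, Sqle at 41.2 ± 9.16 CPM per kb and Hmgcs1 at 34.1 ± 4.76 did not differ beyond their spread. They were followed by Cyp51 (25.5 ± 3.19), Dhcr7 (18.7 ± 5.70), Sc5d (12.4 ± 0.839), Fdft1 (9.54 ± 2.85) and, well below, Lss (2.44 ± 0.366), with overlapping spreads between Cyp51 and Dhcr7, between Dhcr7 and Sc5d and between Sc5d and Fdft1. In SynapTRAP, Hmgcs1 led again at 56.1 ± 1.40 CPM per kb, then Sqle (32.9 ± 6.79), Cyp51 (21.4 ± 2.21), Dhcr7 (13.9 ± 0.952), Fdft1 (10 ± 2.78), Sc5d (7.90 ± 1.15) and Lss (4.08 ± 0.978), and Fdft1 and Sc5d did not differ beyond their spread. These levels use the length of 1 annotated transcript for each gene.

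The comparison of the band with the homogenate asks which mRNAs are relatively abundant among synaptosomes. In SNF against WCH, 5 of the 7 enzymes were called higher (Sc5d, Cyp51, Dhcr7, Sqle and Fdft1) and none lower. Of all genes tested 37.0% were called, 20.6% higher and 16.5% lower. All 5 are ER-membrane enzymes. Lss was the 1 ER-membrane enzyme of 6 that was not called, and the soluble Hmgcs1 was not called either. The median of the 6 ER-membrane enzymes was 1.72, beside -0.25 for all genes. The authors' deposited table of genes enriched in the synaptic fraction holds 3508 genes. It lists the same 5, with log2 fold changes of 2.06 for Sc5d, 2.01 for Dhcr7, 1.999 for Cyp51, 1.84 for Sqle and 0.95 for Fdft1. Neither Lss nor Hmgcs1 is in it. That table belongs to the same series, so it is not a separate test. Scaling by total counts gave Sqle -0.64, Cyp51 -0.39, Dhcr7 -0.54 and Sc5d -0.39, of which none was called, while Fdft1 (-1.67), Lss (-2.47) and Hmgcs1 (-2.20) were called lower. Measured from the median gene, those same values are 1.96, 2.21, 2.06, 2.21, 0.93, 0.13 and 0.40, which by construction stay close to those under TMM.

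The other enzymes of the pathway were counted in the same way, beside the 20.6% of all genes called higher. Of 7 other ER-membrane enzymes of cholesterol synthesis, 6 were called higher in SNF than in WCH, among them Ebp (1.78) and Msmo1 (1.39), which act on late sterol intermediates. Of 6 other soluble enzymes (Acat2, Mvk, Pmvk, Mvd, Idi1 and Fdps), 0 were called by edgeR in either direction, 2 had an unadjusted p under 0.05, and DESeq2 called 0. Their log2 differences ran from -0.62 (Acat2) to 0.65 (Mvk), with a median of -0.33.

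**Figure D2:**
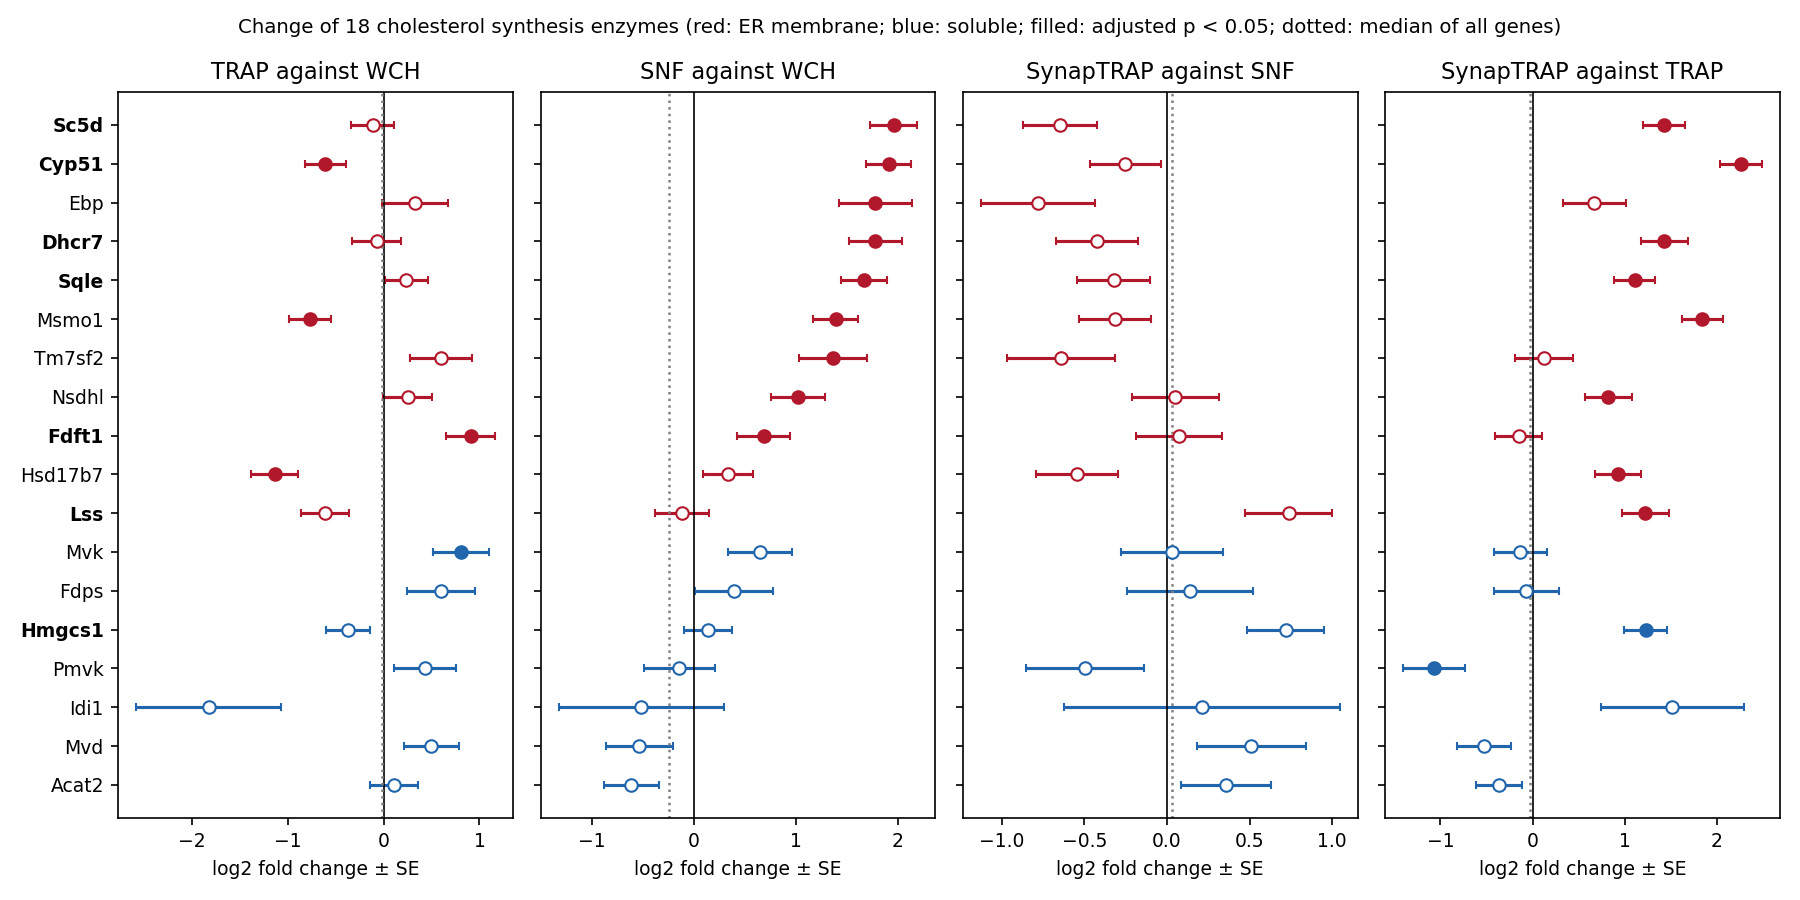
Log2 fold change ± SE (horizontal axes, TMM-scaled) of 18 cholesterol synthesis enzymes in 4 comparisons, with the 7 enzymes of the text in bold. Red marks ER-membrane and blue soluble enzymes, filled points were called, and the dotted line is the median of all genes. In SNF against WCH, 9 of the 11 ER-membrane and 0 of the 7 soluble enzymes drawn were called higher, and all 7 enzymes in bold lie right of the dotted line. Scaling by total counts would move all points of that panel left together with the dotted line.

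The pull-down from whole cortex asks which mRNAs are relatively abundant on ribosomes of Snap25-expressing cells. In TRAP against WCH, Fdft1 was called higher and Cyp51 lower, 2 of 7 where 22.0% of all genes were called, 11.1% higher and 10.9% lower. Cyp51 fell by 0.61 ± 0.22 (edgeR adjusted p = 0.0492), and this call depended on the settings. It was lost under RLE size factors (adjusted p = 0.0631), without a filter on low counts (0.0863), with only these groups in the fit (0.0582), under total counts, and without any 1 WCH, TRAP or SNF library or SynapTRAP replicate 1 (edgeR adjusted p of 0.0573 to 0.300). Sqle (0.24 ± 0.22), Sc5d (-0.12 ± 0.23) and Dhcr7 (-0.08 ± 0.25) were not called, nor was Lss at -0.61 ± 0.25 (edgeR adjusted p = 0.0850). Among the other enzymes, Msmo1 (-0.77) and Hsd17b7 (-1.14) were called lower and the soluble Mvk (0.81) higher. In the same comparison 8 of 12 astrocyte and 8 of 12 oligodendrocyte markers were called lower and 5 of 12 neuron markers higher.

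Between the pull-downs, SynapTRAP against TRAP, 6 of 7 enzymes were called higher and none lower, where 39.8% of all genes were called, 21.6% higher and 18.1% lower. Beside Cyp51 and Hmgcs1, Sc5d was higher by 1.43 ± 0.23, Dhcr7 by 1.43 ± 0.25, Lss by 1.23 ± 0.25 and Sqle by 1.11 ± 0.22 (edgeR adjusted p of 5.48e-05 to 0.000642). Fdft1 was the exception at -0.15 ± 0.25 (edgeR adjusted p = 0.664). Here the soluble Hmgcs1 was among the enzymes called. Of the 6 other soluble enzymes, Pmvk was called lower (-1.07) and none higher, and Idi1, at 1.52 ± 0.78, was not called (edgeR adjusted p = 0.126). Of the 7 other ER-membrane enzymes 5 were called higher, among them Msmo1 (1.84) and Hsd17b7 (0.93). All 12 astrocyte and 10 of 12 oligodendrocyte markers were also called higher in this comparison. Under total counts Cyp51 alone of the 7 was called higher (1.34) and Fdft1 was called lower (-0.997). This comparison and those with WCH or SNF share libraries and are not independent of each other.

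Within the band, SynapTRAP against SNF, edgeR called 0 of the 7 enzymes, where 4.08% of all genes were called, 2.29% higher and 1.79% lower. At an unadjusted p under 0.05 there were 3: Hmgcs1 (0.72 ± 0.23, adjusted p from edgeR of 0.0815), Lss (0.74 ± 0.26, adjusted p 0.116) and Sc5d (-0.65 ± 0.22, adjusted p 0.106). These 3 depended on the fit. With the replicate number as a block, Hmgcs1 was called at 0.73 (edgeR adjusted p = 0.0421), and DESeq2 called Sc5d alone at -0.76 (adjusted p = 0.0210). Without SynapTRAP replicate 2, Lss was called at 0.93 (edgeR adjusted p = 0.0403), and without TRAP replicate 2 or 3, Sc5d was called at -0.75 (adjusted p = 0.0461 and 0.0349). The blocked fit also raised the number of genes called over the whole table from 547 to 834. Sqle (-0.32 ± 0.22), Dhcr7 (-0.42 ± 0.25), Cyp51 (-0.25 ± 0.21) and Fdft1 (0.07 ± 0.26) were not called. Under total counts all 7 were called higher, with 12171 of the 12177 genes called. Of the other ER-membrane and soluble enzymes edgeR called 0 of 7 and 0 of 6, with 2 and 0 at an unadjusted p under 0.05, and DESeq2 called 0 and 0.

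The difference between the pull-down effects, that from the band (SynapTRAP over SNF) against that from cortex (TRAP over WCH), was tested directly. edgeR called 0 of 7 enzymes, where 0.865% of all genes were called (0.507% higher, 0.358% lower), and 3 had an unadjusted p under 0.05. Lss had the largest difference, 1.34 ± 0.36 (edgeR adjusted p = 0.0718), followed by Hmgcs1 at 1.09 ± 0.33 (adjusted p = 0.0987) and Fdft1 at -0.84 ± 0.36 (adjusted p = 0.233). DESeq2 called Lss at 1.21 (adjusted p = 0.0404). In edgeR Lss was also called without a filter on low counts (1.36, adjusted p = 0.0464) and without SynapTRAP replicate 2 (1.53, adjusted p = 0.0289). With the replicate block Hmgcs1 was called at 1.12 (edgeR adjusted p = 0.0454), and 366 genes were called over the whole table in place of 116.

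A ratio of enzymes within a library does not depend on how libraries are scaled. The mean log2 CPM of the 6 ER-membrane enzymes less that of Hmgcs1 was -2.52, -2.36 and -2.76 in WCH, -2.70, -1.74 and -2.14 in TRAP, -1.53, -0.94 and -1.72 in SNF, and -2.19, -2.14 and -2.44 in SynapTRAP. Every SNF library lay above every WCH and every SynapTRAP library, by 1.15 and 0.86 on average, whereas SynapTRAP and TRAP overlapped with a difference of -0.07. With all enzymes of the pathway, 13 ER-membrane and 7 soluble, SynapTRAP did stand above TRAP, by 1.05, and SNF above WCH by 1.40. In the first of these values Hmgcs1 was the only soluble enzyme, and it was itself higher in SynapTRAP than in TRAP. A list outside the pathway gave similar values: 12 ER-membrane less 7 soluble enzymes of fatty acid synthesis were 1.59 higher in SNF than in WCH and 1.22 higher in SynapTRAP than in TRAP.

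**Figure D3:**
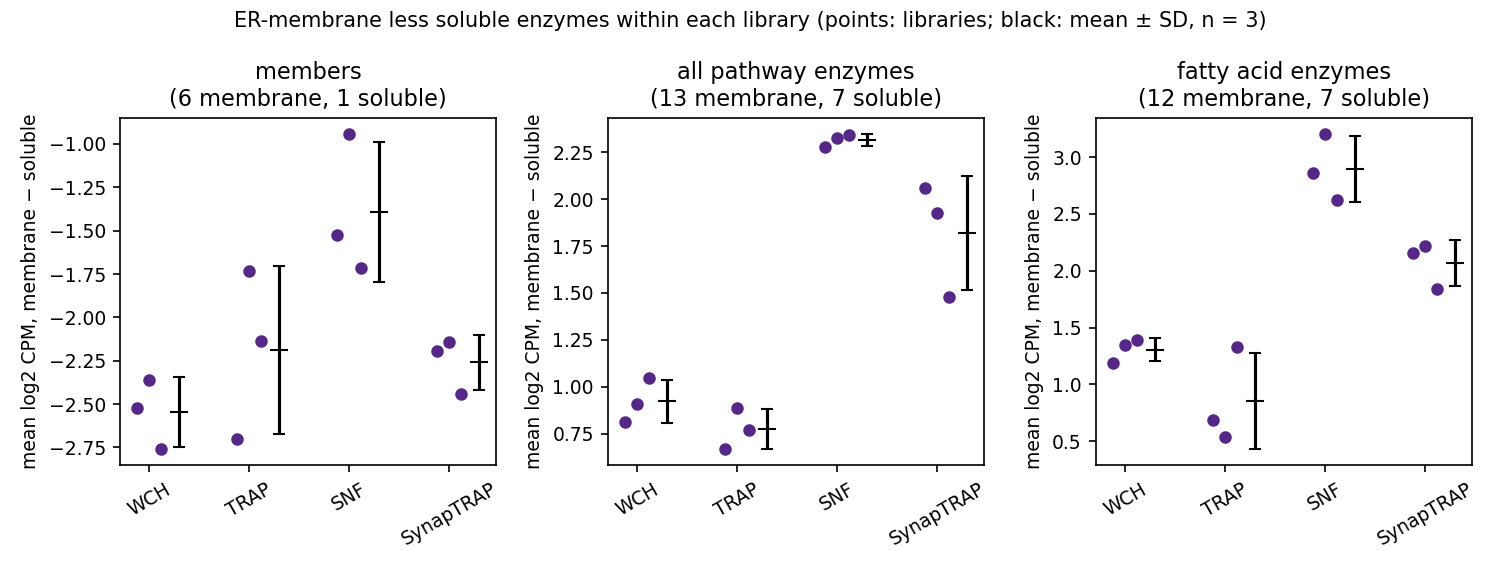
Mean log2 CPM of ER-membrane enzymes less that of soluble enzymes within each library (vertical axes), by preparation, for the 7 enzymes of the text, for all 20 cholesterol synthesis enzymes and for 19 fatty acid enzymes. Points are libraries and black marks are mean ± SD (n = 3). SNF lies above WCH in all 3 panels, and SynapTRAP lies above TRAP in the middle and right panels but overlaps it in the left.

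Each ER-membrane enzyme was also set against Hmgcs1 alone, band against whole cortex, with libraries exchanged only within the pull-downs and within the inputs. This test was chosen after the data had been seen, over 6 ratios, and the smallest p it can give is 0.005. The Cyp51 to Hmgcs1 ratio was 1.38 higher in the band on the log2 scale (two-sided exact permutation p = 0.005, adjusted 0.03 over the 6). It was higher by 1.78 in SNF than in WCH and by 0.98 in SynapTRAP than in TRAP, and every band library lay above every whole-cortex library. Sc5d (0.99) and Dhcr7 (0.87) did not pass after adjustment (exact permutation p = 0.035, adjusted 0.07), nor did Sqle (0.66, adjusted 0.128 in the same exact test). Their ratios were higher in SNF than in WCH by 1.81, 1.58 and 1.51, but the differences between the pull-downs were 0.17, 0.15 and -0.18. Fdft1 (-0.46) and Lss (-0.17) gave adjusted values of 0.348 and 0.44 in the exact permutation test. With pull-down libraries exchanged only within a replicate number, since same-numbered pull-downs deviated together, no ratio passed. Cyp51 gave an exact permutation p of 0.0125, the smallest that this version can give, and an adjusted value of 0.075. Both versions exchanged inputs independently of pull-downs, although same-numbered SNF and SynapTRAP libraries deviated together too (correlations 0.218, 0.293 and 0.379). Without any 1 SynapTRAP library Cyp51 missed the threshold at an adjusted exact p of 0.06, with ratios of 1.33 to 1.42, and without TRAP replicate 2 Dhcr7 passed it (1.06, adjusted exact p = 0.015).

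The changes in SNF against WCH can be read beside the codon windows shown above. The 3 enzymes with 13 or 14 second-base T codons in their richest window were higher by 1.67 to 1.96, and Cyp51, with 11, by 1.91. Fdft1 and Lss, both with 10, measured 0.68 and -0.12, and Hmgcs1, with 9, measured 0.14. Of the 7 other ER-membrane enzymes, 5 had 13 and 2 had 12. The 6 other soluble enzymes had 8 to 10. Over all genes with a coding sequence, 8.72% of the 5542 genes with 9 or 10 such codons were called higher in SNF, and 61.1% of the 1526 genes with 13 or 14. The pattern is therefore shared by the whole table. Each of the 7 enzymes lay above the median of the genes in its own range of the count: Cyp51 by 2.05, Fdft1 by 1.12, Sc5d by 0.80, Dhcr7 by 0.61, Hmgcs1 by 0.57, Sqle by 0.51 and Lss by 0.32.

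**Figure D4:**
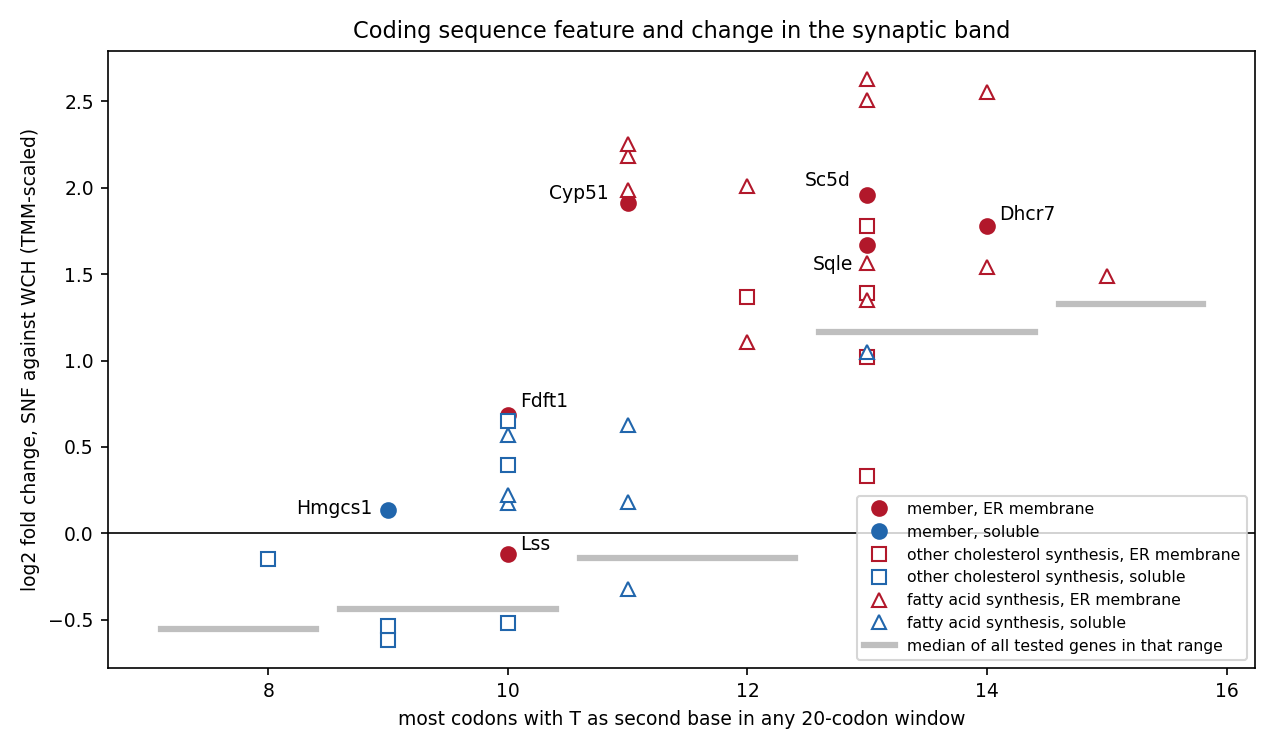
Log2 fold change of SNF against WCH (vertical axis, TMM-scaled) against the most second-base T codons in any 20-codon window of the coding sequence (horizontal axis, a count), for enzymes of cholesterol and fatty acid synthesis. Grey bars are medians of all tested genes in 5 ranges of the count, the outer 2 ranges drawn shortened. Sqle, Sc5d and Dhcr7 sit at 13 and 14 with values of 1.67 to 1.96, and Hmgcs1, Lss and Fdft1 at 9 and 10 with -0.12 to 0.68. Cyp51 sits at 11 with 1.91, far above the grey bar of its range. Scaling by total counts would lower all values together.

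Across the 12 libraries, Sqle, Cyp51, Dhcr7 and Sc5d moved as a group. Their log2 CPM values had pairwise Pearson correlations of 0.93 to 0.97, given as a description since the libraries share 4 preparations. Hmgcs1 was closest to Lss (0.79), and Fdft1 stood apart, with correlations of -0.15 to 0.44 with the other 6. Among the 5 genes most like the mean of the ER-membrane enzymes were Olfml2b, Slc12a5, Cntn2 and Tnc (0.98 to 0.99). Slc12a5, the neuronal chloride exporter, averaged 190.5 CPM in WCH and 196.9 in TRAP, against 720.7 in SNF and 528.4 in SynapTRAP. The 5 most like Hmgcs1 were Add3, Crot, Arhgap31, Psat1 and Trp53bp2 (0.92 to 0.94). Psat1, an enzyme of serine synthesis, averaged 34.2, 24.5, 57.6 and 88.4 CPM in the same order.

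Genes that control the pathway were described from a list of 8 around SREBP, the factor that switches on cholesterol genes when ER cholesterol is low. In SNF against WCH, 6 of 8 were called higher, where 20.6% of all genes were. These were the SREBP escort Scap (1.77), Srebf1 (1.72), Srebf2 (1.33) and the retention protein Insig1 (1.30), with the activating proteases Mbtps1 and Mbtps2. Srebf2, which encodes the form that acts on cholesterol synthesis, measured 34.5 ± 2.53 CPM in WCH and 54.0 ± 10.6 in TRAP, against 86.7 ± 10.7 in SNF and 95.8 ± 15.6 in SynapTRAP (SD, n = 3). It was one of 2 genes of the list called higher in TRAP than in WCH (0.65 ± 0.22, edgeR adjusted p = 0.0347), with Scap (0.85). SynapTRAP exceeded TRAP for Srebf1 (2.08), Srebf2 (0.83) and Scap (0.56), where 21.6% of all genes were called higher. It fell below SNF for Mbtps2 (-1.17) and Insig1 (-0.98), where 1.79% of all genes were called lower. Relative to the median gene, all 8 lay above it in SNF against WCH under all 3 scalings, which are not separate tests.

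Uptake was described from 10 genes of lipoprotein receptors and of the lysosomal release of cholesterol. Of these, 8 were called higher in SNF than in WCH and none lower, where 20.6% of all genes were called higher. The largest differences were those of the receptor Lrp1 (2.60), the lysosomal cholesterol carriers Npc1 (1.97) and Npc2 (1.75), and the lysosomal lipase Lipa (1.66). In TRAP against WCH, 3 of the 10 were called lower, where 10.9% of all genes were: Vldlr (-1.12), Npc2 (-0.91) and Lrp8 (-0.71). In SynapTRAP against TRAP 7 were called higher, where 21.6% of all genes were, among them Npc2 (1.97), Lrp1 (1.62) and Npc1 (1.54). Within the band Npc1 (-1.12) and Vldlr (-1.06) were called lower in SynapTRAP than in SNF, as were 1.79% of all genes.

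Export, storage and turnover were described from another 10 genes. Of these, 7 were called higher in SNF than in WCH, where 20.6% of all genes were. The largest differences were those of the carrier proteins Apoe (2.87) and Clu (2.55), the exporter Abca1 (1.83) and the exporter Abcg1 (1.63). In TRAP against WCH, the sterol-sensing receptor Nr1h2 (0.92) and Cyp46a1 (0.85), the neuronal enzyme that removes cholesterol from brain, were called higher and Abca1 (-0.95) lower. Of all genes, 11.1% were called higher there and 10.9% lower. Between the pull-downs 7 were called higher in SynapTRAP, where 21.6% of all genes were. The largest differences were those of Apoe (3.44), Clu (2.40), Abca1 (2.29) and Soat1 (1.43), which makes cholesterol esters. Apoe, Clu and Abca1 are abundant in astrocytes, and all 12 astrocyte markers were also called higher in this comparison. In TRAP against WCH 8 of those 12 were called lower, as was Abca1, while Clu (0.15) and Apoe (-0.88) were not called. The part of astrocytes in these values was not tested. Within the band edgeR called 0 of the 10, 0 had an unadjusted p under 0.05, and DESeq2 called 0.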

How the data were processed

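RNA of 12 cortex libraries was analysed. The authors deposited 1 raw count per gene and library for 29879 genes, and 5 closing lines of reads assigned to no gene (19.3% to 58.3% of a library) were left out. Bowtie2, STAR, HTSeq and edgeR were used, per the submitters' processing notes. Not given in the sources used here: their versions, the build, the annotation and the strand setting. Thus reads of overlapping genes could not be told apart. Per the file headers, the authors' deposited table of genes enriched in the synaptic fraction gives log2 fold changes, p-values and false discovery rates.

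Symbols, coordinates and coding sequences came from GENCODE M21 (GRCm38). The main fit used edgeR 4.0.16 (R 4.3.3) with TMM scaling, its default expression filter and the robust quasi-likelihood test, group means only. SEs are such that (log2 fold change/SE) squared equals the F statistic. DESeq2 1.42.0 was an alternative, as were other scalings and filters, a replicate block, and leaving out each library. CPM used the same scaling, and log2 CPM a prior count of 2. Near copies were searched with BLAST 2.17.0. The tests were tried on simulated data. A rate first required for the recovery of 2-fold changes was missed and then dropped, so true changes of that size can go uncalled.

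Replicate numbers have no stated meaning. Same-numbered libraries deviated together between SynapTRAP and SNF (correlations 0.218, 0.293 and 0.379) and between SynapTRAP and TRAP (0.104, 0.144 and 0.106), which meets the rule used here for pairing. The main fit had no block. Over all 18 same-number pairs the correlations ran from -0.0149 to 0.379. Values with the replicate block stand beside the results they change.

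The enzymes and all gene lists were chosen with earlier results of these data known. Named were the 7 enzymes and Srebf2 throughout, up to 4 called genes per other list and comparison with the largest change, and the 5 genes most alike in pattern. Other names were added after their values were seen, and some genes that the rule names are not reported here.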

Additional observations from a re-analysis of the deposited data

How the results depend on the processing

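Among the members' differences over 5 comparisons, removing the mitochondrial genome changed no call, RLE size factors changed 1 and the replicate block 2, and the block changed no other of these calls. In the ratios to Hmgcs1, exchanging pull-downs only within a replicate number, added after seeing the data, lost Cyp51 (adjusted exact p 0.075). Scaling by total counts changed most. In SNF against WCH it called 3 of 7 enzymes, all lower, where the main analysis called 5, all higher. It called 1 in TRAP against WCH (2 in the main analysis) and 7 in SynapTRAP against SNF (0). In SynapTRAP against TRAP it called 2 (6), and in the difference between pull-down effects 3 (0). It reversed SNF against WCH for Sqle (-0.64), Fdft1 (-1.67), Cyp51 (-0.39), Dhcr7 (-0.54), Sc5d (-0.39) and Hmgcs1 (-2.20), and SynapTRAP against SNF for Sqle (1.68), Cyp51 (1.73), Dhcr7 (1.54) and Sc5d (1.35). It called 11452, 12177 and 6329 genes over the whole table in SNF against WCH (4966), SynapTRAP against SNF (547) and the difference of effects (116). By construction it moves all genes of a library together.

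In TRAP against WCH, 1 enzyme was called under RLE size factors, with no filter and with only the compared groups. In SynapTRAP against SNF, 1 was called by DESeq2 and 1 with the replicate block, and in the difference of effects 1 with no filter, 1 by DESeq2 and 1 with the block. Over the whole table, SynapTRAP against SNF gave 887 calls with no filter, 964 by DESeq2, 834 with the block and 261 with only those groups. The difference of effects gave 512, 565 and 366 under the first 3 of these.

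Leaving out 1 library gave 0 to 2 enzymes called in TRAP against WCH, 4 to 5 in SNF against WCH, 0 to 1 in SynapTRAP against SNF, 6 to 6 in SynapTRAP against TRAP and 0 to 1 in the difference of effects. The whole table then gave 1484 to 3626, 3340 to 5517, 55 to 952, 4365 to 5613 and 0 to 444 calls. The ER-membrane less soluble value ran from 0.13 to 0.61, 0.93 to 1.32, -1.03 to -0.64 and -0.32 to 0.16 in the first 4 comparisons. With all pathway enzymes it was -0.15 in TRAP against WCH, -0.50 in SynapTRAP against SNF and 1.05 in SynapTRAP against TRAP. Apart from total counts, whose construction shows it, the cause of these changes was not tested. Depth limits Lss most, at 38 to 50 counts in each SNF library.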

Other observations

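Enzymes of fatty acid synthesis were counted in the same way. All 12 ER-membrane desaturases and elongation enzymes were called higher in SNF than in WCH, where 20.6% of all genes were. Their median was 1.999, led by Scd1 (2.63), Fads2 (2.55), Fads1 (2.51) and Hsd17b12 (2.25). Scd1 places the double bond of oleate, and Fads1 and Fads2 make polyunsaturated fatty acids. All 12 were also called higher in SynapTRAP than in TRAP, with a median of 2.13, where 21.6% of all genes were called higher. Of 7 enzymes listed as soluble, Fasn and Acly among them, edgeR called 0 in SNF against WCH, 2 had an unadjusted p under 0.05, and DESeq2 called 2. In SynapTRAP against TRAP 4 of these 7 were called higher. These values are relative to the bulk of genes, as in the results above. All 12 membrane enzymes lay above the median gene under TMM, RLE and total counts in both comparisons, and these 3 scalings are not separate tests.

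Over the 12877 tested genes with a coding sequence, the share called higher in SNF against WCH was 4.45% for genes with at most 8 second-base T codons in their richest 20-codon window, 8.72% for 9 to 10, 22.6% for 11 to 12, 61.1% for 13 to 14 and 65.0% for 15 to 20. In TRAP against WCH the shares called higher were 11%, 12.3%, 11.8%, 9.17% and 8.18%. In SynapTRAP against SNF the shares called lower were 0.122%, 0.361%, 1.29%, 6.95% and 8.04%.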
